A study of Mus musculus with 24 samples.

Results

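The mRNA carried by polysomes was compared between KP and N pancreatic organoids that had received vehicle, in 6 of the 24 libraries of the series. N organoids were grown from pancreatic duct isolates of C57Bl/6J mice. KP organoids were grown from pancreatic tumours of mice that carried Pdx1-Cre with Trp53+/LSL-R172H and another Cre-dependent allele. In these mice Cre recombinase is driven by the promoter of Pdx1, a gene of the pancreatic lineage, and switches on 1 mutant allele of Trp53. Both groups were kept without EGF and N-acetylcysteine, received DMSO for 1 h and were treated with cycloheximide, which holds ribosomes on the mRNA, before lysis. Fractions of the sucrose gradient with 3 or more ribosomes per mRNA were pooled and sequenced. Each group had 3 libraries, numbered 1 to 3. The sources used here do not say whether these came from separate mice, lines or cultures, so the p-values measure only the spread between these libraries, which may be technical. Lanes were not shared between N and KP libraries, so lane and organoid type cannot be told apart. The age and sex of the mice were not given in the sources used here. The other libraries used for reference were total mRNA of the same lysates and the same 2 fractions after CR-31, which inhibits eIF4A, a helicase of translation initiation.

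Pancreatic ductal adenocarcinoma often carries loss or mutation of the tumour suppressor p53. Growth signals reach transcription through the kinases RAF, MEK and ERK, and reach translation through the eIF4F complex, which recruits ribosomes to the mRNA cap. mRNAs with several ribosomes are under active translation, and their amount follows both the abundance of the mRNA and the share of it that is loaded with ribosomes. A higher level on polysomes therefore does not by itself tell these apart, and total mRNA is given beside it for that reason. In bulk libraries, more cells of a kind and more mRNA per cell cannot be told apart either.

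The 6 libraries held 75799146 to 193500321 counted reads each. Of 18719 entries with a single gene symbol, 11438 had a count above 0 in all 24 libraries and were tested. Levels are given as CPM, the count scaled to a common library size with TMM factors, in the order of replicates 1, 2 and 3, and differences as log2 fold changes of KP over N with their SE. The N libraries varied more among themselves than the KP libraries: the median SD of log2 CPM was 0.40 in N and 0.25 in KP (n = 3 each). Correlations of log2 CPM across genes were 0.92 to 0.95 within N, 0.97 to 0.98 within KP and 0.89 to 0.93 between N and KP libraries. The first principal component held 51.2% of the variance and separated all N from all KP libraries.

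Duct markers were abundant in all 6 libraries. The 29 genes of that list summed to between 13638 and 19070 CPM in N and between 9171 and 14831 CPM in KP. Krt7, a keratin of simple duct epithelium, was at 1088, 689 and 795 CPM in N and 1070.0, 1508 and 1105 CPM in KP. Of 24 acinar markers in the table, 8 were at 0 in all 6 libraries, among them Prss1, Cpa1 and Ptf1a. Others were detected: Cela1 was at 3.44 to 4.75 CPM, and Bhlha15, Pnliprp2 and Sycn reached 1.7, 2.05 and 1.17 CPM. Of 18 endocrine markers 8 were at 0, among them Ins1, Ins2 and Gcg, while Insm1 was at 0.392 to 4.21 CPM. Of 23 fibroblast and stellate markers 4 were at 0, among them Col3a1 and Lum. Col1a1 did not exceed 0.784 CPM in any library. Members of that list at higher levels included Fn1, Fbln2 and Pdpn, which reached 537.8, 107.1 and 41.35 CPM in N.

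A pair of libraries stood apart. The library labelled KP vehicle polysome replicate 3 held mRNAs of macrophages and other leukocytes. Lyz2, the lysozyme of myeloid cells, was at 22.6 CPM there and at most 0.662 CPM in the other 5 libraries. Laptm5, Itgam and Ptprc were at 8.02, 7.05 and 2.92 CPM, and Vim, an intermediate filament of mesenchymal cells and leukocytes, at 24 CPM. All 15 leukocyte markers outside the tested set summed to 48.2 CPM in this library, 0.145 to 3.95 CPM in the other 5, at most 4.45 CPM in any other library of the series and 0.391 CPM in the total mRNA library of the same label. The whole list of 20 leukocyte markers summed to 172 to 980 CPM in N and 88.5 to 255 CPM in KP, most of it from Cd14, and Cd3g and Itgax were at 0 in all 6. In this library 143 tested genes were at least 4-fold above both other KP libraries.

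The library labelled N vehicle polysome replicate 3 carried a surge of immediate early mRNAs, which cells make within minutes of a stimulus. Fos was at 44.8, 29.1 and 1541 CPM in N and 37.5, 23.9 and 22.8 CPM in KP. The surge was not in the total mRNA library of the same label, in which Fos was at 53.5 CPM, but was in the one labelled N CR-31 total replicate 3, in which Fos was at 2095 CPM. Across genes, the deviations of the N vehicle polysome replicate 3 library from its group correlated at 0.26 with those of its own vehicle total library and at 0.85 with those of the CR-31 total library of the same number. For the library labelled N CR-31 polysome replicate 3 these values were 0.27 with its own and 0.79 with the vehicle total library. The library labelled KP CR-31 polysome replicate 1 also lay further from its own total library (0.067) than from the vehicle one (0.73), and that labelled N vehicle polysome replicate 2 was at 0.65 and 0.72. Whether treatment labels were exchanged among these libraries, in either fraction, cannot be told from these values. The treatment of the library labelled N vehicle polysome replicate 3 is therefore uncertain wherever its values are given, and the labels were used as given. In the N replicate 3 library 137 tested genes were at least 4-fold above both other N libraries.

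**Figure D1:**
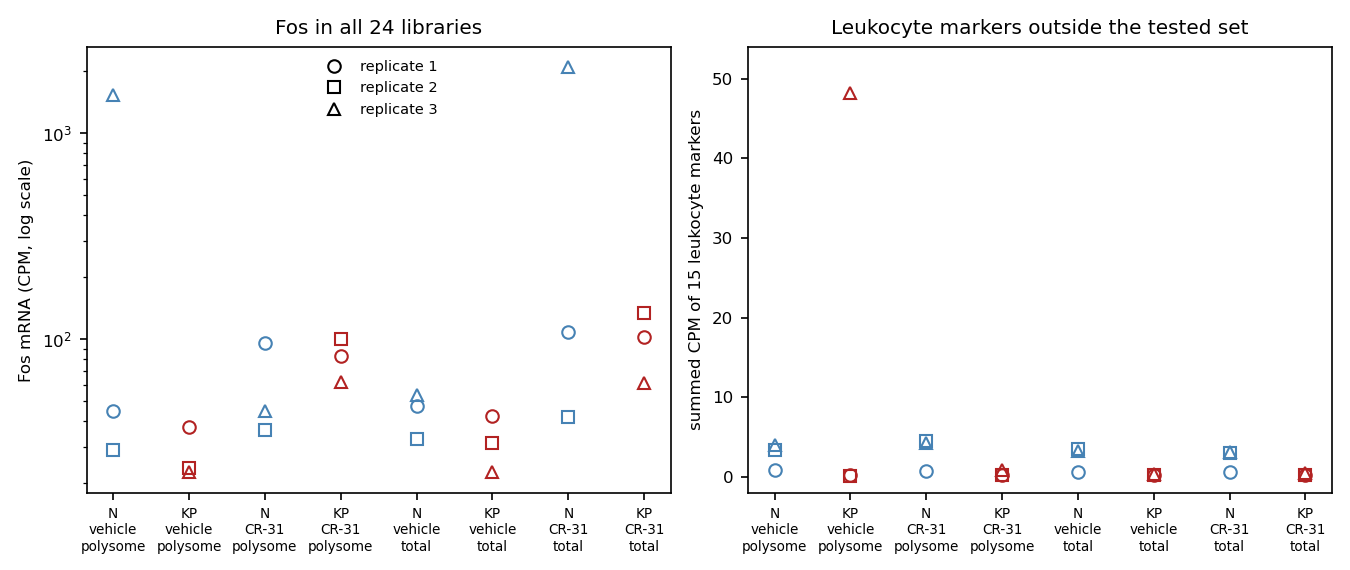
Fos mRNA on a log axis (left) and the summed CPM of the 15 leukocyte markers outside the tested set (right) in all 24 libraries, 1 symbol per library, shaped by replicate number, with N in blue and KP in red. The library labelled N vehicle polysome replicate 3 reached 1541 CPM of Fos, and the library labelled KP vehicle polysome replicate 3 reached 48.2 CPM of leukocyte markers.

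Of 11438 genes tested, 4930 differed between KP and N on polysomes at an adjusted p under 0.25, the threshold of the study's methods. Of these, 2392 were higher in KP, which is 20.9% of the tested genes, and 2538 were lower, which is 22.2%. Counts of list members called with all libraries, given below, stand beside these shares. At an adjusted p under 0.05, 1743 genes were called, which is 15.2%, with 917 higher and 826 lower. A change of over 2-fold was seen in 2252 of the 4930. The median log2 fold change over all tested genes was -0.03. The 3 KP and 3 N libraries did not overlap for 3561 of the 4930 genes, and for 3866 of all 11438, which is 33.8%. Without both libraries that stood apart, 2546 genes were called higher (22.3%) and 2476 lower (21.6%). Without N replicate 3 alone these were 2761 (24.1%) and 2764 (24.2%). Without KP replicate 1 the count of calls fell to 3257. The shares called higher were 19.7%, 15%, 14.8%, 16% and 18.4% without N replicate 1, N replicate 2, KP replicate 1, KP replicate 2 and KP replicate 3 in turn, and the shares called lower were 21.9%, 17.2%, 13.7%, 16.3% and 19.5%. In all, 2537 of the 4930 genes were called in all 6 fits that left out 1 library each.

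**Figure D2:**
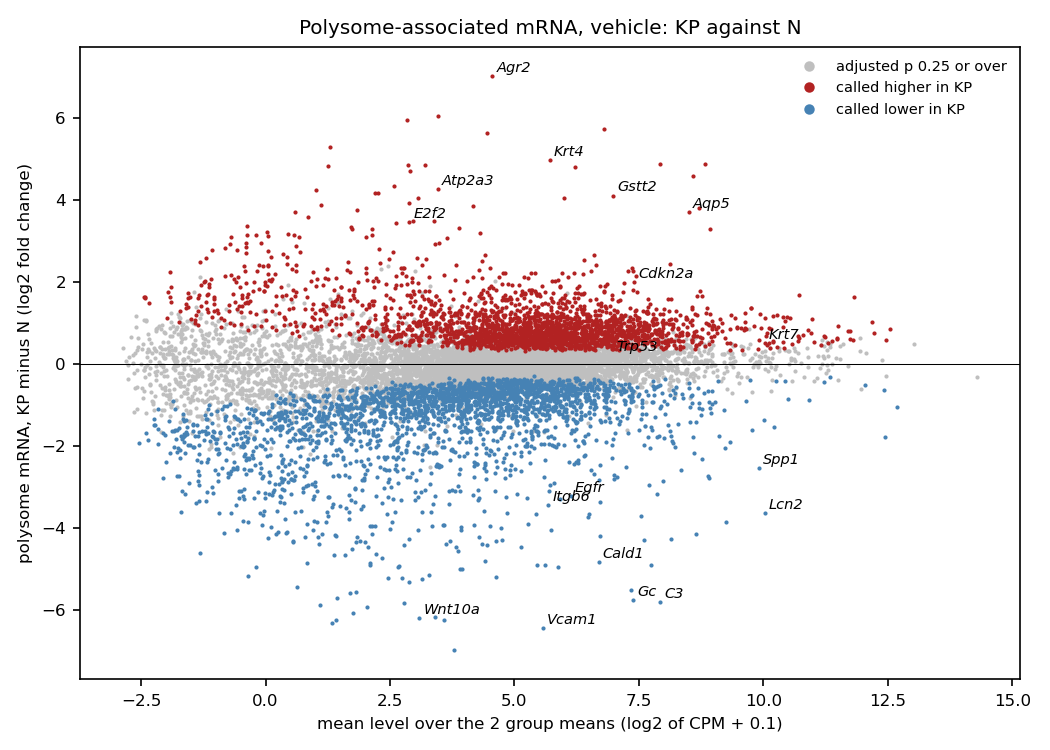
Log2 fold change of polysome-associated mRNA, KP minus N, against the mean level as log2 of CPM + 0.1, 1 point per tested gene (11438), with genes called higher in KP in red and lower in blue at an adjusted p under 0.25. Agr2 at 7.02 and Vcam1 at -6.42 are among the named genes farthest from 0, and Trp53 at 0.22 lies near it.

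The p53 circuit was examined next. Trp53 mRNA on polysomes was at 109, 95.3 and 140.2 CPM in N and 112, 136 and 154 CPM in KP, with overlapping groups (log2 fold change 0.22 ± 0.23, adjusted p = 0.542). The R172H allele is a point mutation in a gene that remains expressed, so this level does not check the genotype labels. Cdkn2a, which encodes the cell cycle inhibitor p16 and the p53 activator ARF, was at 80.7, 42 and 80.9 CPM in N and 328, 262 and 222 CPM in KP (log2 fold change 2.00 ± 0.33, adjusted p = 0.00514). The groups for Cdkn2a did not overlap. Cdkn1a and Mdm2, targets of active p53, had log2 fold changes of 0.27 and -0.24 and did not pass the test (adjusted p = 0.572 and 0.677).

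Of 37 tested genes of the p53 circuit and its targets, 7 were higher (18.9%) and 9 lower (24.3%), near the 20.9% and 22.2% of all tested genes. The median was 0.10, or 0.21 without KP replicate 3, and 10 were higher and 7 lower without N replicate 1. Pmaip1, which encodes the cell death activator NOXA, was at 206, 184 and 203 CPM in N and 55.2, 53.2 and 43.3 CPM in KP (log2 fold change -1.97 ± 0.21, adjusted p = 0.000629), with tight groups that did not overlap. Fas, a death receptor, was lower as well, at 2.05, 7.65 and 7.36 against 0.777, 1.23 and 1.33 CPM. Pidd1 and Perp, which encode a death domain scaffold and a membrane protein of p53-dependent apoptosis, were higher, with log2 fold changes of 1.65 and 0.99. Among 17 BCL2 family genes, 3 were higher and 6 lower, or 3 and 3 without KP replicate 1 and 5 and 6 without N replicate 1. The executioners Bax and Bak1 were higher, Bax at 371, 291 and 323 CPM in N and 677, 717 and 504 CPM in KP and Bak1 at 146, 148 and 137 and 279.8, 337 and 301 CPM. The initiators Bmf and Bik were lower, with log2 fold changes of -2.40 and -3.21, and without both libraries that stood apart the adjusted p of Bik was 0.217 and that of Bmf 0.0271. In total mRNA Bax and Bak1 had log2 fold changes of 0.26 and 0.26 that did not pass the test.

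Calls among RAS and RAF genes depended on N replicate 3. With all libraries 6 of 28 were higher (21.4%) and 3 lower (10.7%), beside 20.9% and 22.2% of all tested genes, with a median of -0.05. Without N replicate 3, 7 were higher and 11 lower, with a median of -0.19. These were 5 and 1 without KP replicate 2 or KP replicate 3. Hras was at 153, 123 and 86.8 CPM in N and 248, 217 and 244 CPM in KP (log2 fold change 0.97 ± 0.23, adjusted p = 0.0171). Map2k2, which encodes MEK2, was at 228, 148 and 156 and 367, 443 and 315 CPM (log2 fold change 1.08 ± 0.27, adjusted p = 0.022). In total mRNA the log2 fold changes of Hras and Map2k2 were 0.32 and 0.29 and did not pass the test. Sos1, the exchange factor that loads RAS with GTP, was lower at 33.9, 29.7 and 23.8 against 19.5, 19.7 and 16.7 CPM.

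Among 28 outputs and feedback genes of MAPK signalling, 8 were higher and 10 lower, and these were 8 and 5 without N replicate 3, 4 and 10 without N replicate 2, and 7 and 6 without KP replicate 1. Hmga2, a chromatin protein of embryonic and tumour cells, was at 25, 11.3 and 8.49 CPM in N and 69.5, 83.3 and 57.3 CPM in KP (log2 fold change 2.23 ± 0.44, adjusted p = 0.0091). Etv4, an ETS factor induced by ERK, was at 37.7, 10.7 and 19.9 and 84.9, 135 and 60.8 CPM (log2 fold change 2.04 ± 0.56, adjusted p = 0.0334). Dusp10, a phosphatase of the JNK and p38 kinases, was lower at 30.9, 43.5 and 80.5 against 11.3, 12 and 16.1 CPM (log2 fold change -1.98 ± 0.32, adjusted p = 0.00408). The values of Dusp1 and Egr1 depended on N replicate 3. Dusp1 was at 49.9, 49.1 and 2179 CPM in N and 34.3, 34.8 and 60.9 CPM in KP, and its log2 fold change went from -4.13 to -0.19 without N replicate 3 and to -0.51 without both libraries that stood apart. That of Egr1 went from -2.73 to 0.44 and 0.75.

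The 27 immediate early genes showed the same dependence. With all libraries, 22 of 27 were lower in KP and none was higher, with a median of -1.92. Without N replicate 3, 12 were lower and 2 higher, with a median of -0.52. Fos had a log2 fold change of -4.26 with all libraries and -0.26 (adjusted p = 0.727) without both. In the 2 N libraries other than replicate 3, Fos was within 29.1 to 44.8 CPM, beside 22.8 to 37.5 CPM in KP.

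The receptor Egfr, which receives EGF and its relatives, was lower in KP. It was at 217, 68 and 94.9 CPM in N and 10.4, 13.6 and 16.7 CPM in KP, and every KP library was below every N library (log2 fold change -3.22 ± 0.56, adjusted p = 0.00585). Its ligand Tgfa was higher, at 89.7, 64.4 and 33.7 CPM in N and 188, 229 and 143 CPM in KP (log2 fold change 1.58 ± 0.33, adjusted p = 0.0117). Of 16 EGF receptors and ligands tested, 1 was higher and 6 lower, or 2 and 4 without N replicate 3. Hbegf was among those 6 with 74.7, 53.9 and 249.6 CPM in N and 54.4, 54.8 and 57.4 CPM in KP, and without both libraries that stood apart its log2 fold change was -0.23 (adjusted p = 0.662).

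The 12 genes with the largest increase by the naming rule began with Agr2, an endoplasmic reticulum protein needed for the folding of mucins. Agr2 was at 0.249, 0.325 and 0.504 CPM in N and 80.5, 29.3 and 29.2 CPM in KP (log2 fold change 7.02 ± 0.82, adjusted p = 0.000927). Sult1d1, a sulphotransferase, went from 0.0269, 0.313 and 0.358 to 22.6, 11.7 and 7.5 CPM and Krt4, a keratin of stratified mucosa, from 2.46, 1.68 and 5.58 to 138, 150.3 and 14.2 CPM. Atp2a3, the calcium pump SERCA3, went from 1.12, 1.4 and 0.728 CPM in N to 16.1, 20.8 and 25.4 CPM in KP (log2 fold change 4.26 ± 0.36, adjusted p = 0.000285). Il5ra, a cytokine receptor chain, was at 0.746, 0.65 and 0.213 and 25.3, 14 and 3.08 CPM, and Rhox5, a homeobox gene, at 0.0941, 0.12 and 1.48 and 22.9, 5.58 and 5.32 CPM. S100a7a, a calcium-binding protein of keratinocytes, was at 1.36, 0.0962 and 0.347 and 30.9, 18.8 and 2.96 CPM. In Agr2, Sult1d1, Rhox5, Krt4, Il5ra and S100a7a the KP replicate 3 library was the lowest of the 3 KP libraries, in Agr2 and Rhox5 by little.

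The other 5 of the 12 were core histone genes: Hist1h2ab, Hist1h2ac, Hist1h2ad, Hist1h2ak and Hist1h2ae. These genes are near-identical copies and their mRNAs mostly lack a poly(A) tail, so their counts are uncertain. Hist1h2ad was at 37.2, 21 and 31 CPM in N and 1162, 219 and 1247 CPM in KP, and Hist1h2ac at 0.464, 0.529 and 1.6 and 96.2, 28.1 and 2.88 CPM. The KP libraries differed widely in all 5. Without both libraries that stood apart, Hist1h2ad and Hist1h2ac had adjusted p of 0.0395 and 0.0266.

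The 12 genes with the largest decrease by the naming rule were led by Tnfrsf11b, which encodes osteoprotegerin, a decoy receptor of the TNF family. It was at 0.518, 18.4 and 62.4 CPM in N and 0.0647, 0.387 and 0.219 CPM in KP, and N replicate 1 lay close to the KP libraries (log2 fold change -6.97 ± 1.79, adjusted p = 0.025). Vcam1, an adhesion molecule induced by NF-kB, was at 22.3, 111 and 147 CPM in N and 0.469, 0.544 and 2.29 CPM in KP (log2 fold change -6.42 ± 1.00, adjusted p = 0.00379). Gc, the vitamin D binding protein, was at 315, 258 and 411 and 1.59, 3.15 and 13.6 CPM (log2 fold change -5.75 ± 0.89, adjusted p = 0.00368), and C3, the central complement component, at 85.2, 718 and 634 and 1.35, 2.87 and 21.8 CPM (log2 fold change -5.79 ± 1.48, adjusted p = 0.0246). Wnt10a, a WNT ligand, went from 17.3, 8.42 and 24.1 to 0.108, 0.278 and 0.317 CPM (log2 fold change -6.18 ± 0.65, adjusted p = 0.000526). Lce1h, of the cornified envelope, went from 10.4, 3.81 and 5.04 to 0.113, 0.121 and 0.0487 CPM and Krt6b, a keratin of wounded epidermis, from 26.9, 2.36 and 13.2 to 0.361, 0.423 and 0.28 CPM. Tnfrsf11b, Vcam1, Gc and Wnt10a were highest in N replicate 3, as were Chil1, Ramp1, Saa3, Wnt11 and Egr2. Saa3 and Wnt11 were called without both libraries that stood apart at an adjusted p under 0.05 (log2 fold changes of -5.95 and -5.19), while Chil1, Ramp1 and Egr2 had edgeR adjusted p of 0.0994, 0.0531 and 0.154. Egr2 was at 0.269, 0.277 and 14.9 CPM in N and 0.119, 0.0726 and 0.0975 CPM in KP, so its place among the 12 rested on N replicate 3.

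**Figure D3:**
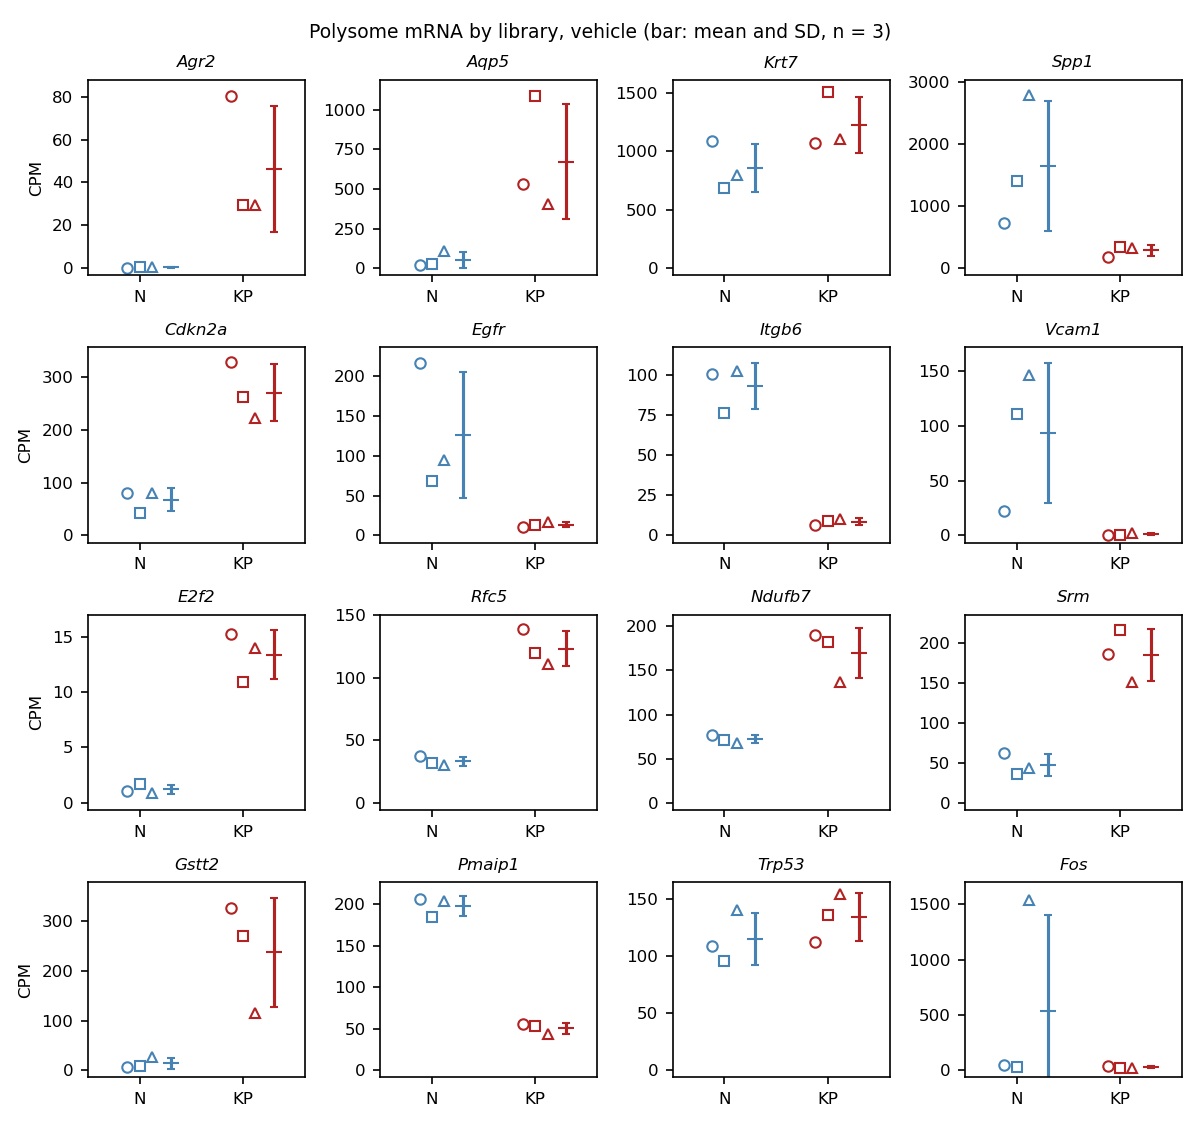
CPM on polysomes in each of the 3 N (blue) and 3 KP (red) libraries for 16 genes on linear axes, with symbols shaped by replicate (circle 1, square 2, triangle 3) and a bar for the mean and SD. Itgb6, Pmaip1, Rfc5 and Ndufb7 show groups that do not overlap, Trp53 shows groups that do, and Fos is high in N replicate 3, where the SD bar of N runs below the axis.

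Identity genes of the duct epithelium moved in both directions. Of 28 tested duct markers 3 were higher and 14 lower, with a median of -0.47, and 9 were lower without KP replicate 1. Aqp5, a water channel, was higher at 21.4, 25.9 and 107 CPM in N and 528, 1089 and 402 CPM in KP (log2 fold change 3.71 ± 0.74, adjusted p = 0.00931). Slc4a4, the bicarbonate cotransporter of duct cells, was lower at 169.6, 242 and 129.8 against 16, 32.2 and 28.4 CPM (log2 fold change -2.82 ± 0.42, adjusted p = 0.00344). Spp1, a secreted phosphoprotein also called osteopontin, was lower at 731, 1407 and 2785 against 183, 342 and 329 CPM (log2 fold change -2.53 ± 0.49, adjusted p = 0.00841). The groups did not overlap in any of these.

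Of 34 transcription factors of pancreatic and neighbouring endoderm, 9 were higher and 12 lower. Pdx1, the factor whose promoter drives Cre, was at 8.12, 11.1 and 14.1 CPM in N and 26.5, 18.6 and 21.4 CPM in KP (log2 fold change 1.00 ± 0.26, adjusted p = 0.0246). Cdx2, the intestinal homeobox factor, was at 22.2, 14.4 and 15.1 and 82.9, 48.4 and 39.8 CPM (log2 fold change 1.73 ± 0.35, adjusted p = 0.0101). Foxa1, a pioneer factor of the endoderm, was lower at 4.34, 10.2 and 5.43 against 0.982, 0.496 and 1.44 CPM. Among 20 mucin, trefoil and gastric genes 8 were higher and 2 lower, with a median of 0.67, or 1.20 without both libraries that stood apart, and 5 were higher and 3 lower without KP replicate 1. Besides Agr2 these included Gcnt3, a glycosyltransferase of mucins, at 16.7, 3.49 and 1.6 CPM in N and 106, 100.4 and 156 CPM in KP. The gastric protease Ctse was lower at 4.18, 22.2 and 10.1 against 0.264, 0.75 and 0.195 CPM.

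Genes of adhesion and of the surrounding matrix were called lower more often than higher. Of 33 integrin, laminin and matrix adhesion genes 15 were lower and 2 higher, and of 36 tight junction and adhesion genes 16 were lower and 1 higher, or 15 and 4 without N replicate 3. Itgb6, an integrin subunit that activates TGF-beta, was at 101, 76.5 and 103 CPM in N and 6.56, 8.95 and 10.4 CPM in KP (log2 fold change -3.43 ± 0.28, adjusted p = 0.000285). Cldn4, a tight junction claudin, was at 593, 495 and 1475 and 194, 334 and 229.6 CPM and Dsg2, a desmosomal cadherin, at 114, 130.2 and 78.8 and 31.2, 32.7 and 41.7 CPM. Crb3, a protein of apical polarity, was the member of that list called higher, at 74.3, 73 and 72.7 against 109.8, 126 and 101 CPM.

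Of 24 mesenchymal transition genes 11 were lower and 3 higher. Fn1, fibronectin, was at 538, 302 and 276 CPM in N and 4.15, 6.54 and 46.1 CPM in KP (log2 fold change -4.30 ± 1.06, adjusted p = 0.0216). Cald1, an actin-binding protein, was at 258, 229 and 109.9 and 4.84, 3.99 and 12.3 CPM (log2 fold change -4.82 ± 0.64, adjusted p = 0.00193). KP replicate 3, the library with leukocyte mRNAs, was the highest of the 3 KP libraries for both Fn1 and Cald1, and without both libraries that stood apart their log2 fold changes were -6.29 and -5.78. The fibroblast and stellate list, of which Fn1 made up the largest part in N and in KP replicate 3, summed to 331 to 564 CPM in N and 15.9 to 83.9 CPM in KP, with Col3a1 and Lum at 0. The small proteins Lgals1 and S100a6 were among the 3 called higher, Lgals1 at 7.71, 20 and 16.1 against 74.5, 65.3 and 47 CPM. Of the squamous and basal genes, 6 of 23 were higher and 8 lower, with a median of -0.28, but 8 were higher and 6 lower without N replicate 3, with a median of 0.38, and 5 and 5 without KP replicate 2. Krt6a, a keratin of wounded epidermis, was at 52.4, 5.62 and 28.6 CPM in N and 0.852, 1.27 and 0.597 CPM in KP, opposite in direction to Krt4.

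Genes of the Hippo, TGF-beta and WNT lists were called lower more often than higher, while Notch genes were called in both directions. Of 27 Hippo pathway genes 13 were lower and none higher, with a median of -0.61, and 20 were lower without N replicate 3 and 8 without KP replicate 1. The scaffolds Amot and Amotl1 were at 45.4, 62.5 and 29 and 112, 106 and 27 CPM in N and at 10.3, 5.35 and 12.5 and 9.75, 19 and 19.5 CPM in KP. Of 35 TGF-beta and BMP genes 13 were lower and 2 higher, or 16 and 6 without N replicate 3. Inhba, which encodes activin A, was at 91.3, 15.6 and 37 CPM in N and 0.583, 1.2 and 2.23 CPM in KP (log2 fold change -5.18 ± 0.89, adjusted p = 0.00558), and Tgfb2 at 51.7, 60.6 and 37.7 and 0.831, 3.21 and 5.36 CPM (log2 fold change -4.00 ± 0.74, adjusted p = 0.00703). Bmp7 was higher at 3.46, 3.49 and 4.01 against 9.55, 19.7 and 6.69 CPM. Of 36 WNT targets and feedback genes 15 were lower and 4 higher, or 19 and 2 without N replicate 3, with Wnt7a at 43.4, 42.6 and 66.3 CPM in N and 0.825, 5.89 and 1.11 CPM in KP. Of 27 Notch genes 7 were higher (25.9%) and 8 lower (29.6%), not far from the 20.9% and 22.2% of all tested genes. These counts were 3 and 7 without N replicate 2, 4 and 7 without KP replicate 2, and 5 and 4 without KP replicate 1. Among the Notch genes called lower was Lfng, a glycosyltransferase of Notch receptors, at 53.9, 45.5 and 79.7 against 5.52, 22.5 and 16.6 CPM. In the MYC and MAX network 7 of 13 were lower and none higher, and 3 were lower without KP replicate 3 and 4 without N replicate 1, N replicate 2 or KP replicate 1. Mycn was at 9.98, 10.2 and 9.21 CPM in N and 0.275, 0.605 and 2.28 CPM in KP (log2 fold change -3.23 ± 0.87, adjusted p = 0.03) and Mycl at 23.2, 34.2 and 14.5 and 5.08, 8.99 and 6.41 CPM (log2 fold change -1.81 ± 0.35, adjusted p = 0.00797).

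Immune response genes were called lower in KP. Of 42 interferon response and antigen presentation genes 31 were lower and none higher, with a median of -1.35. Without both libraries that stood apart, 27 were lower and 1 higher, with a median of -1.28. Ifit3, an interferon-induced antiviral protein, was at 3.19, 7.77 and 9.77 CPM in N and 0.275, 0.0726 and 0.707 CPM in KP (log2 fold change -4.30 ± 0.78, adjusted p = 0.00649). Oasl2 was at 2.18, 7.29 and 17.8 and 0.308, 0.75 and 1.56 CPM. Of 36 cytokine, chemokine and NF-kB genes 26 were lower and 2 higher, with a median of -1.90. These were 21 and 2 without N replicate 3, with a median of -1.04, and 23 and 2 without both libraries, with a median of -1.58. The 2 higher genes were Ccl28, a mucosal chemokine, at 0.632, 6.48 and 2.97 against 13.9, 16.3 and 9.49 CPM, and Il33, an epithelial alarmin, at 11.8, 13.4 and 10.5 against 29.7, 24.3 and 16.9 CPM. Lcn2, an iron-binding protein of inflamed epithelium, was at 486, 1584 and 3736 CPM in N and 38.7, 155 and 275 CPM in KP (log2 fold change -3.63 ± 0.98, adjusted p = 0.0301). The N libraries differed widely in Lcn2, and N replicate 3 was the highest. The leukocyte markers outside the tested set summed to 0.915, 3.37 and 3.95 CPM in N and 0.264, 0.145 and 48.2 CPM in KP, and their part in the immune lists was not tested.

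**Figure D4:**
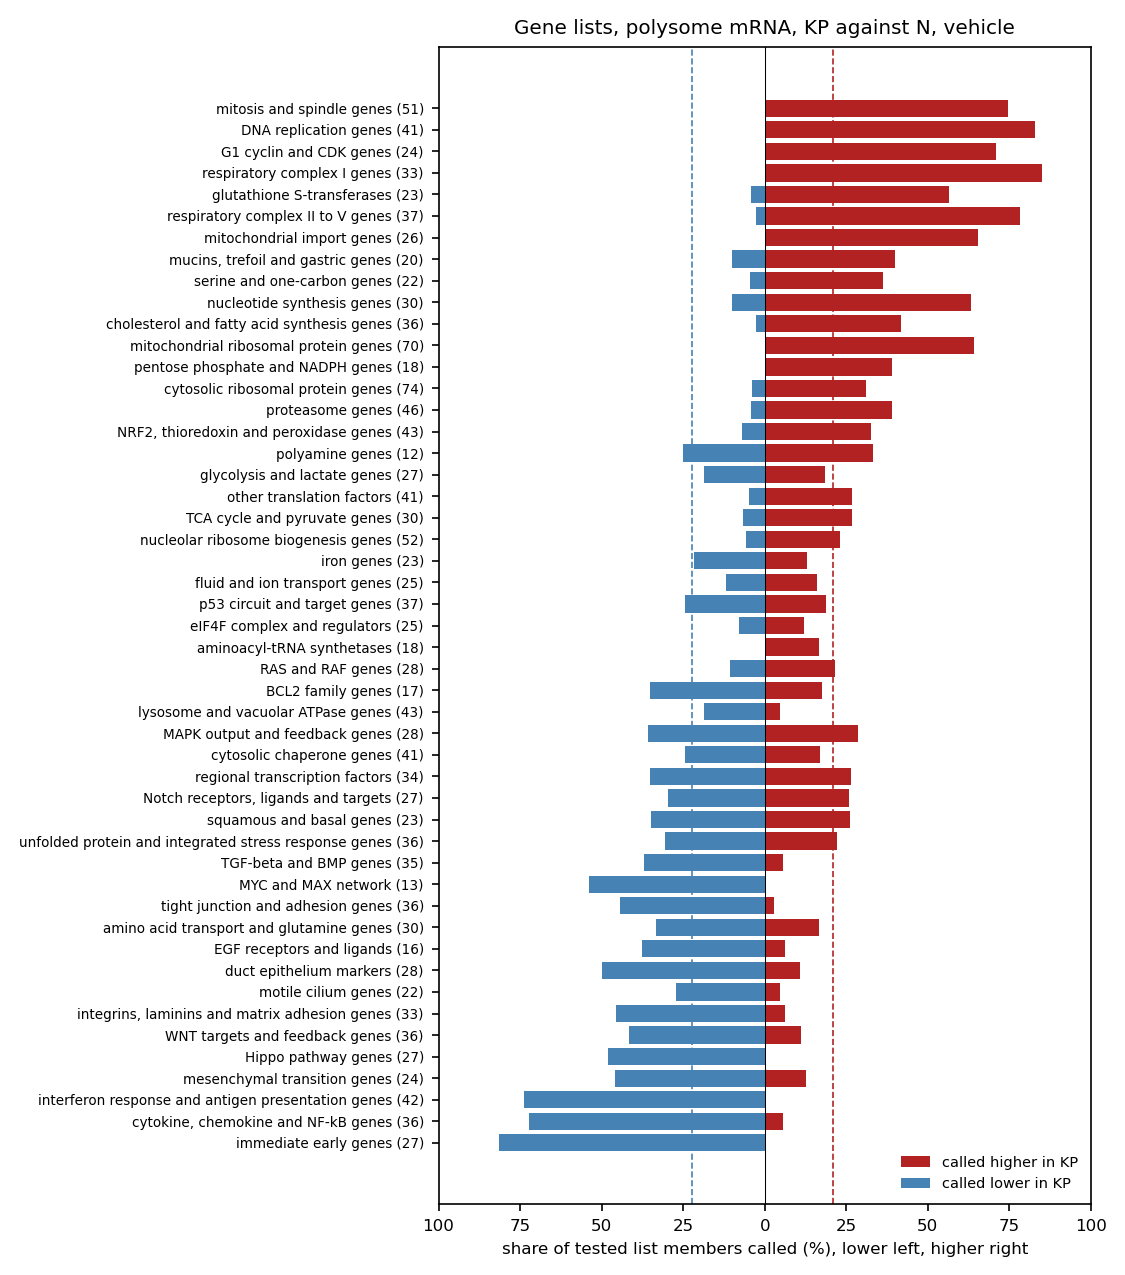
Share of the tested members of each gene list called higher (red, to the right) or lower (blue, to the left) in KP at an adjusted p under 0.25, for lists with 10 or more tested genes (number in brackets), ordered by median log2 fold change. The dashed lines mark the shares over all tested genes, 20.9% higher and 22.2% lower.

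Cell cycle genes were called higher in KP more often than lower in all 3 lists. Of 51 mitosis and spindle genes 38 were higher and none lower, with a median of 1.24. Of 41 DNA replication genes 34 were higher and none lower, with a median of 0.96. Of 24 G1 cyclin and CDK genes 17 were higher and none lower, with a median of 0.95. These shares stand beside 20.9% of all tested genes called higher. Without both libraries that stood apart, the counts called higher were 31, 29 and 14, and 1 G1 gene was called lower. In the fit without N replicate 1, 2 G1 genes and 1 replication gene were called lower.

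E2f2, a transcription factor of S phase genes, was at 1.11, 1.66 and 0.863 CPM in N and 15.3, 10.9 and 14 CPM in KP (log2 fold change 3.47 ± 0.35, adjusted p = 0.000513). Rfc5, a subunit of the clamp loader, was at 37.5, 31.8 and 30.4 and 139, 119 and 111 CPM (log2 fold change 1.89 ± 0.19, adjusted p = 0.000513). The origin licensing factor Cdt1 and its inhibitor Gmnn were both higher, Cdt1 at 23, 23.3 and 20.8 against 77.8, 65.9 and 82.2 CPM and Gmnn at 16.2, 15.9 and 12 against 67.7, 36 and 45.2 CPM. Groups did not overlap for any of these. Mcm5, of the replicative helicase, was at 35.1, 33 and 39.5 CPM in N and 118, 96.3 and 115 CPM in KP. Cdc6, which loads that helicase, was at 5.38, 6.74 and 9.13 and 17.6, 10.8 and 19.4 CPM, and Uhrf1, which guides DNA methylation to new strands, at 31.7, 25.1 and 23.6 and 59.9, 38.3 and 71.2 CPM. Among mitotic genes, Cdca3 was at 28.5, 52.3 and 15.5 against 193, 99.8 and 169 CPM (log2 fold change 2.26 ± 0.46, adjusted p = 0.0101). Spc24, of the kinetochore, was at 9.19, 10 and 10 against 60.7, 26.2 and 39 CPM and the transcription factor Mybl2 at 35.6, 20.1 and 11.2 against 114, 76.4 and 80.6 CPM. Cdca5, a regulator of cohesion, was at 10, 9.44 and 9.53 CPM in N and 44.5, 25.1 and 39.3 CPM in KP. Ube2c, of the anaphase-promoting complex, was at 60.4, 61 and 27.4 and 217, 110.3 and 188 CPM and the cyclin Ccnf at 9.33, 13.9 and 6.55 and 36, 26.7 and 38.1 CPM.

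The promoters of these genes were read from RefSeq (GRCm38.p6) because their members moved together. Motifs were searched on both strands in the 250 bases before each start, and a match is a description of the letters only. The E2F letters TTTNNCGC were in 9 of 32 promoters of the DNA replication genes called higher (28.1%), beside 4.28% of all 32851 promoters. The CHR letters TTTGAA were in 15 of 37 promoters of the mitotic genes called higher (40.5%), beside 16% of all. The CCAAT box was in 28 of these 37 (75.7%), beside 33.8% of all, and 28 of 34 replication and 35 of 38 mitotic genes were matched to a promoter. The E2F, CHR, CCAAT and NRF1 letters were chosen after the results were known. The AP-1 letters TGANTCA were in none of the 32 and none of the 37, beside 6.75% of all. Mcm5, Cdc6, Uhrf1, Cdca5, Ube2c and Ccnf, and Atp5k, Cox6a1 and Sdhb further on, were named for these letters after their values were seen. Windows of 60 bases are shown for replication genes with the E2F letters in capitals and for mitotic genes with the CHR letters in capitals, each 5′ to 3′ on the strand of the gene. The letters may lie on either strand, and Mcm5 holds a pair of overlapping matches:
Mcm5 (chr8:75109334-75109393, plus strand): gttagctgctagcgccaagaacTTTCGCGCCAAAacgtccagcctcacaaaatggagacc
Cdc6 (chr11:98907987-98908046, plus strand): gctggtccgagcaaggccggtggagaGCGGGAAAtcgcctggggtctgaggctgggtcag
Uhrf1 (chr17:56303255-56303314, plus strand): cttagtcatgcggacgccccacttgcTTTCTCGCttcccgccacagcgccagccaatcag
Cdca5 (chr19:6085037-6085096, plus strand): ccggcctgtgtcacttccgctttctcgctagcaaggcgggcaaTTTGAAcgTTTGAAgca
Ube2c (chr2:164769869-164769928, plus strand): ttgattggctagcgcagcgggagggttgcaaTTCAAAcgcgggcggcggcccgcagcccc
Ccnf (chr17:24251410-24251469, minus strand): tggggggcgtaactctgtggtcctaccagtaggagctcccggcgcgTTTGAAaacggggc

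Cell cycle genes were called higher in total mRNA as well. The medians in total mRNA were 1.49 for mitosis, 1.14 for DNA replication and 0.76 for G1 genes, and 48 of 51, 38 of 41 and 15 of 24 were called higher there, beside 13.1% of all tested genes. After CR-31 the polysome medians were 1.42, 1.27 and 0.71, and 48, 34 and 14 were called higher, beside 11.2%. Without the library labelled KP CR-31 polysome replicate 1 these medians were 1.21, 1.12 and 0.66, and 27, 25 and 9 were called higher, beside 4.21%.

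Genes of the respiratory chain, the mitochondrial ribosome and mitochondrial import were called higher more often than lower. Of 33 respiratory complex I genes 28 were higher and none lower, with a median of 0.78. Of 37 genes of complexes II to V 29 were higher and 1, Sdha, was lower, with a median of 0.75. Of 70 mitochondrial ribosomal protein genes 45 were higher and none lower, and of 26 import genes 17 were higher and none lower. Without both libraries that stood apart the counts higher were 30, 32, 56 and 17.

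Ndufb7, an accessory subunit of complex I, was at 76.8, 71.4 and 67.8 CPM in N and 190.0, 182 and 137 CPM in KP (log2 fold change 1.24 ± 0.20, adjusted p = 0.00395). Ndufb10 was at 75.8, 81 and 76.2 and 209, 165 and 194 CPM (log2 fold change 1.28 ± 0.22, adjusted p = 0.00545). Cyc1, the cytochrome of complex III, was at 136, 112 and 176 and 465, 486 and 327 CPM (log2 fold change 1.59 ± 0.25, adjusted p = 0.00398). All 3 had groups that did not overlap. Atp5g1, of the ATP synthase rotor, was at 81, 72.3 and 45.5 against 264, 211 and 193 CPM. Sdha, the flavoprotein of complex II, went the other way with overlapping groups at 96.6, 129 and 149.7 against 69.4, 77.3 and 99 CPM (log2 fold change -0.61 ± 0.25, adjusted p = 0.111). Among mitochondrial ribosomal proteins, Mrpl28 was at 47.9, 38.3 and 55.8 CPM in N and 198, 221 and 115 CPM in KP (log2 fold change 1.91 ± 0.29, adjusted p = 0.0036) and Mrpl12 at 114, 79.3 and 115 and 372, 323 and 231 CPM (log2 fold change 1.59 ± 0.28, adjusted p = 0.0058). Tomm40, the pore of the outer membrane, was at 106, 55.7 and 49.3 and 229, 210.4 and 181 CPM (log2 fold change 1.56 ± 0.31, adjusted p = 0.00899).

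The NRF1 letters GCATGCGC were in 6 of 27 promoters of the complex II to V genes called higher (22.2%), beside 2.26% of all promoters, with 25 of 29 genes matched, and in 2 of 29 promoters of the complex I genes called higher (6.9%). Windows of members with these letters in capitals on either strand are shown because they belong to 3 complexes of the chain:
Atp5k (chr5:108434414-108434473, minus strand): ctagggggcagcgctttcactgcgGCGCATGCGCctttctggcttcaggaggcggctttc
Cox6a1 (chr5:115349085-115349144, minus strand): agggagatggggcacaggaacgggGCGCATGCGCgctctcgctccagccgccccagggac
Sdhb (chr4:140961191-140961250, plus strand): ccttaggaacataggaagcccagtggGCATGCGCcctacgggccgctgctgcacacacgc
Atp5k, of ATP synthase, was at 80.3, 88.8 and 71.5 CPM in N and 222, 136 and 144 CPM in KP. Cox6a1, of cytochrome oxidase, was at 218, 249 and 263 and 478, 598 and 417 CPM. Sdhb, the iron-sulphur subunit of complex II, was at 61.3, 53.4 and 118 and 165, 182 and 97.4 CPM, and its groups overlapped.

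On total mRNA the mitochondrial lists differed less. The medians were 0.32 for complex I, 0.33 for complexes II to V, 0.25 for mitochondrial ribosomal proteins and 0.20 for import, with 9, 12, 15 and 4 genes called higher, beside 13.1% of all tested genes. Without the N replicate 3 libraries these counts were 5, 6, 12 and 3, beside 8.91% of all. For Ndufb7 the log2 fold change was 1.24 on polysomes and 0.40 in total mRNA (adjusted p = 0.182), and for Uqcrq, of complex III, 1.66 and 0.67. The difference between the fractions itself was tested in 1 model with the lysate, taken from the labels, as a block. With all libraries no gene passed an adjusted p under 0.25 in edgeR, and 1281 had an unadjusted p under 0.05. Without the 4 libraries numbered N replicate 3, 2118 genes were relatively higher on polysomes in KP (18.5%) and 1862 lower (16.3%), and none passed an adjusted p under 0.05. In that fit 27 of 33 complex I, 23 of 37 complex II to V, 42 of 70 mitochondrial ribosomal and 29 of 46 proteasome genes were relatively higher on polysomes. These counts were 16, 12, 20 and 16 when only the vehicle N replicate 3 libraries were left out, beside 8.36% of all tested genes. Leaving out both KP CR-31 replicate 1 libraries as well, which takes no further vehicle library away, gave 3244 genes relatively higher (28.4%) and 2892 lower (25.3%), of which 2936 passed an adjusted p under 0.05, and 30, 28, 47 and 35 members of these 4 lists were relatively higher. Both fits were chosen after the data were seen, and the test of this difference thus depended on which libraries entered.

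Cytosolic ribosomal protein genes were called higher on polysomes more often than in total mRNA, and the size of that gap depended on which libraries entered. Of 74 tested, 23 were higher and 3 lower on polysomes, with a median of 0.36 and 62 values above 0. In total mRNA none was higher and 3 were lower, with a median of -0.07, and on polysomes after CR-31 none was higher and 1 lower, with a median of 0.03. Without the 4 N replicate 3 libraries the median in total mRNA was 0.20, with 4 higher and 1 lower. Without these libraries 12 of the 74 were relatively higher on polysomes than in total mRNA and 2 lower. These lay below the 18.5% and 16.3% of all tested genes. The counts were 32 and 4 without the KP CR-31 replicate 1 libraries as well, beside 28.4% and 25.3% of all. Without only the vehicle N replicate 3 libraries the counts were 0 and 1, beside 8.36% and 10.4% of all. The count called higher on polysomes was 7 without N replicate 2, 13 without N replicate 1, 12 without KP replicate 2 and 14 without KP replicate 3, counts below or close to the shares of all tested genes called higher in those fits (15%, 19.7%, 16% and 18.4%). Rps2 was at 3509, 4500.2 and 4704 CPM in N and 5647, 8377 and 9108 CPM in KP (log2 fold change 0.86 ± 0.29, adjusted p = 0.0644). Rpl41, which encodes the smallest ribosomal protein, was at 2349.7, 2609 and 2267 and 3533, 4535 and 4543 CPM (log2 fold change 0.80 ± 0.26, adjusted p = 0.0539). Rpl7 went the other way, at 2612, 2954 and 1968 against 1523, 1248 and 1317 CPM (log2 fold change -0.88 ± 0.25, adjusted p = 0.0337). Ribosomal protein genes have many processed pseudogenes, and reads with several matches were discarded, so their levels are uncertain.

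**Figure D5:**
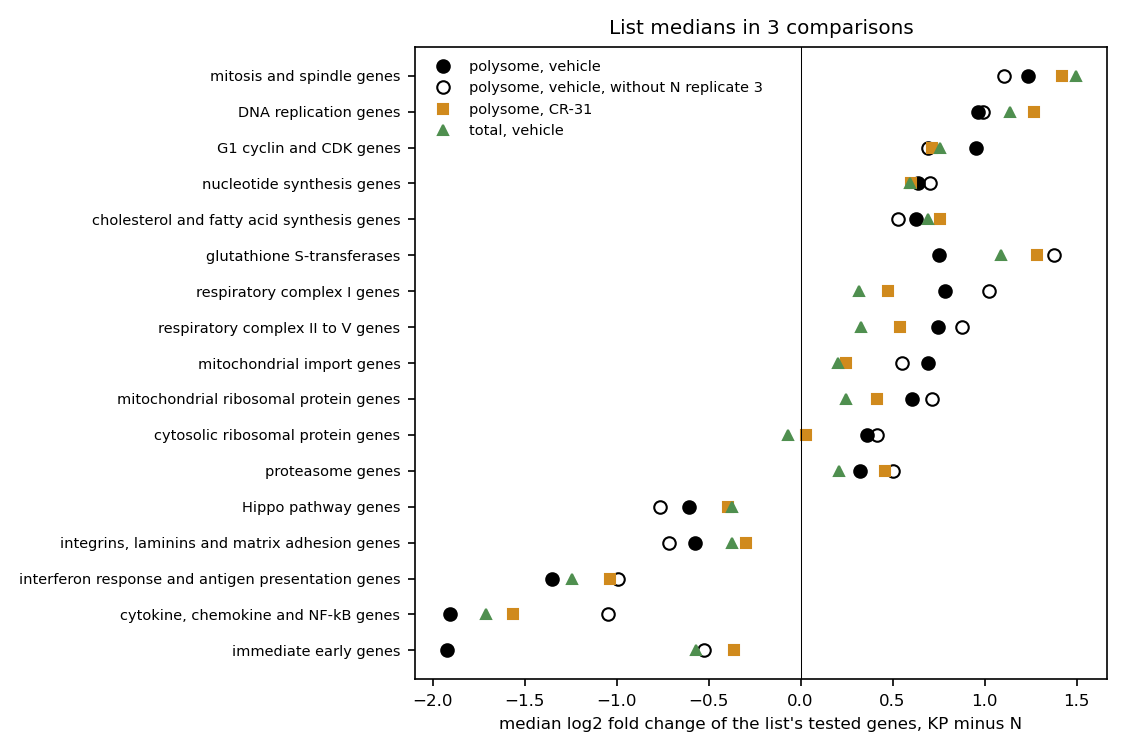
Median log2 fold change, KP minus N, of the tested genes of 17 lists on polysomes with vehicle (filled circles), the same without N replicate 3 (open circles), on polysomes with CR-31 (squares) and in total mRNA with vehicle (triangles). Cytosolic ribosomal protein genes lie at 0.36 on polysomes and at -0.07 in total mRNA, and immediate early genes move from -1.92 to -0.52 without N replicate 3.

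By length-corrected level, as mean RPKM over the 6 libraries, the 10 most abundant polysome mRNAs included Eef1a1, Rpl41, Tpt1, Rps2, Rplp1, Rps14, Tmsb10, Rpl23a and S100a11. Eef1a1, the elongation factor that brings aminoacyl-tRNA to the ribosome, was at 12914 ± 2347 RPKM in N and 9270.2 ± 2782 RPKM in KP (SD, n = 3). Its difference did not pass the test (adjusted p = 0.483). Of those named, Rpl41, Rps2 and Rplp1 were called higher and Tpt1 lower.

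Counts among initiation factors depended on N replicate 3. Of 25 genes of the eIF4F complex and its regulators 3 were higher and 2 lower, with a median of 0.06, and 5 were higher and 7 lower without N replicate 3, with a median of -0.11. These were 5 and 2 without N replicate 1. Eif4ebp1, the repressor of the cap-binding protein, was at 238, 69.4 and 129 CPM in N and 342, 403 and 271 CPM in KP (log2 fold change 1.22 ± 0.49, adjusted p = 0.106), and Mknk2, a kinase of eIF4E, at 219, 277 and 178 and 446, 549 and 337 CPM (log2 fold change 0.98 ± 0.25, adjusted p = 0.0224). Ddx3x, an RNA helicase, was lower at 511, 326 and 443 against 251, 186 and 289 CPM. Of 41 other translation factors 11 were higher and 2 lower, or 18 and 3 without N replicate 3, 7 and 2 without KP replicate 3, and 6 and 1 without N replicate 2. Eif5a was at 1154, 629.9 and 999.9 CPM in N and 2241, 2114 and 1730.1 CPM in KP (log2 fold change 1.13 ± 0.26, adjusted p = 0.0165).

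The polyamine path that feeds the hypusine residue of eIF5A had members called in both directions, 4 of 12 higher and 3 lower. Srm, spermidine synthase, was at 62.8, 35.6 and 44.1 CPM in N and 186, 216 and 151 CPM in KP (log2 fold change 1.96 ± 0.28, adjusted p = 0.00303). Dohh, which completes hypusine, was at 51.7, 40.5 and 50.4 and 109, 139 and 114 CPM (log2 fold change 1.35 ± 0.23, adjusted p = 0.00528). Smox, which oxidises spermine, was lower at 90.3, 70.4 and 82.8 against 32.7, 37.8 and 37.8 CPM (log2 fold change -1.17 ± 0.21, adjusted p = 0.00638). The groups did not overlap in any of the 3. Of 18 aminoacyl-tRNA synthetases 3 were higher (16.7%, beside 20.9% of all tested genes) and none lower, and 6 were higher without N replicate 3. Of 52 nucleolar genes of ribosome biogenesis 12 were higher (23.1%) and 3 lower (5.77%), beside 20.9% and 22.2% of all tested genes. These counts were 3 and 4 without N replicate 2 and 5 and 2 without KP replicate 1. The counts higher in these fits lay below the shares of all tested genes called higher there (15% and 14.8%). Npm3, a nucleolar chaperone, was at 52.3, 39.3 and 63.4 against 119, 103 and 87.7 CPM (log2 fold change 1.00 ± 0.24, adjusted p = 0.0189).

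Redox genes were called higher in part, and the counts depended on which libraries entered. Of 23 glutathione S-transferases 13 were higher and 1 lower, with a median of 0.75, or 1.35 without both libraries that stood apart, when 16 were higher. Gstt2 was at 6.78, 7.88 and 26.8 CPM in N and 327, 269.7 and 115 CPM in KP (log2 fold change 4.10 ± 0.59, adjusted p = 0.00303), and N replicate 3 was the highest N and KP replicate 3 the lowest KP library. Gstm2 was at 46.2, 77 and 68.2 and 274, 353 and 221 CPM (log2 fold change 2.15 ± 0.27, adjusted p = 0.00147). Of 43 NRF2, thioredoxin and peroxidase genes 14 were higher (32.6%) and 3 lower (6.98%), beside 20.9% and 22.2% of all tested genes. The count higher was 6 without N replicate 2, below the 15% of all tested genes in that fit. It was 8 without KP replicate 1 or KP replicate 2, beside 14.8% and 16% of all. Txn2, the mitochondrial thioredoxin, was at 160.0, 157 and 108 CPM in N and 307, 328 and 282 CPM in KP (log2 fold change 1.11 ± 0.22, adjusted p = 0.00841), with a log2 fold change of 0.38 in total mRNA. Of 18 pentose phosphate and NADPH genes 7 were higher and none lower, or 4 and none without KP replicate 1, among them Pgd at 149, 136 and 272 against 395, 334 and 361 CPM and Pgls at 79, 68.6 and 117 against 195, 314 and 179 CPM.

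Of 27 glycolysis and lactate genes 5 were higher (18.5%) and 5 lower (18.5%), near the 20.9% and 22.2% of all tested genes. Without both libraries that stood apart 14 were higher and 2 lower. These were 13 and 3 without N replicate 3, 3 and 2 without KP replicate 1, 4 and 3 without KP replicate 2, and 5 and 2 without KP replicate 3. Ldha, lactate dehydrogenase A, was at 819.9, 569 and 1414 CPM in N and 2133, 1709.8 and 1409 CPM in KP. N replicate 3 lay at the level of the lowest KP library, and the log2 fold change was 0.91 with it and 1.48 without both. Gapdh was at 584, 528 and 1343 and 1392, 1399 and 1147 CPM. Ldhb was lower at 6.43, 12.2 and 25.1 against 1.93, 2.1 and 6.29 CPM (log2 fold change -2.09 ± 0.64, adjusted p = 0.0476). Of 30 TCA cycle and pyruvate genes 8 were higher and 2 lower, or 14 and 1 without N replicate 3, among them Me2, the mitochondrial malic enzyme, at 20.1, 14.5 and 11.3 against 36.6, 42.4 and 25.4 CPM (log2 fold change 1.19 ± 0.29, adjusted p = 0.0221).

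Genes of biosynthesis were called higher in several lists. Of 30 nucleotide synthesis genes 19 were higher and 3 lower, with a median of 0.64. Rrm2, the regulated subunit of ribonucleotide reductase, was at 36.5, 23.6 and 15.1 CPM in N and 125, 52 and 74.2 CPM in KP (log2 fold change 1.74 ± 0.47, adjusted p = 0.0295) and Dut, dUTPase, at 59.5, 45.1 and 33.8 and 199.98, 93.9 and 114 CPM (log2 fold change 1.56 ± 0.33, adjusted p = 0.0128). Both CTP synthases were lower, Ctps at 134, 78.4 and 114 against 73.3, 58.6 and 66.2 CPM and Ctps2 at 22.2, 25.7 and 32.9 against 17.5, 15 and 20.1 CPM. Of 36 cholesterol and fatty acid genes 15 were higher and 1 lower, or 23 and 1 without N replicate 1. The mevalonate pathway enzymes Mvk, Pmvk and Mvd were all higher, with log2 fold changes of 1.71, 1.73 and 1.41, and Mvk was at 55.3, 35 and 26.5 CPM in N and 127, 138 and 117 CPM in KP. Of 22 serine and one-carbon genes 8 were higher and 1 lower, or 5 and 1 without N replicate 2, with Psat1 at 296, 103 and 187 against 439, 425 and 484 CPM. Of 30 amino acid transport and glutamine genes 5 were higher and 10 lower, or 5 and 6 without KP replicate 1, and 3 were higher without N replicate 2, KP replicate 2 or KP replicate 3. Gpt, alanine aminotransferase, was at 1.9, 3.08 and 3.07 CPM in N and 15.3, 15.2 and 17 CPM in KP (log2 fold change 2.56 ± 0.28, adjusted p = 0.000647). The transporter Slc43a2 was lower at 46.7, 85.6 and 47.4 against 6.68, 22.5 and 18.4 CPM.

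Among genes of protein quality control, 18 of 46 proteasome genes were higher and 2 lower, or 25 and 1 without both libraries that stood apart, and the count higher was 11 without N replicate 2 or KP replicate 1. Psmd13, of the regulatory cap, was at 85, 68.6 and 91.7 CPM in N and 186, 165 and 159 CPM in KP (log2 fold change 1.06 ± 0.19, adjusted p = 0.00641). Psmb8, an interferon-induced subunit of the immunoproteasome, was lower at 6.23, 14.4 and 23.2 against 1.28, 1.1 and 5 CPM. Of 41 cytosolic chaperones 7 were higher (17.1%) and 10 lower (24.4%), near the 20.9% and 22.2% of all tested genes, and these were 11 and 6 without N replicate 3 and 7 and 4 without KP replicate 2. Among them was Fkbp4 at 249, 245 and 484 against 749, 648 and 617 CPM. Of 36 unfolded protein and integrated stress response genes 8 were higher and 11 lower, or 6 and 6 without both libraries and 6 and 4 without KP replicate 1, and 5 and 8 without KP replicate 2. Hspa5, the chaperone BiP, was at 353, 272 and 857 CPM in N and 264, 181 and 271 CPM in KP, and its log2 fold change was -0.48 (adjusted p = 0.321) without both libraries. Of 43 lysosome and vacuolar ATPase genes 2 were higher and 8 lower, and without both libraries 10 were higher and 5 lower, and these were 2 and 5 without KP replicate 1. Lamp2 was at 83.5, 143 and 314 CPM in N and 33.8, 59.1 and 51.3 CPM in KP (log2 fold change -1.91 ± 0.42, adjusted p = 0.0138). Of 23 iron genes 3 were higher (13%) and 5 lower (21.7%), beside 20.9% and 22.2% of all tested genes. These counts were 3 and 3 without KP replicate 1 or KP replicate 2 and 5 and 5 without N replicate 1. Ftl1, the ferritin light chain, was at 3293, 2891 and 2987 and 6585, 5312 and 6726 CPM on polysomes (log2 fold change 1.02 ± 0.23, adjusted p = 0.0155), and its log2 fold change in total mRNA was 0.14.

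Of 25 fluid and ion transport genes 4 were higher (16%) and 3 lower (12%), below the 20.9% and 22.2% of all tested genes. Of 22 motile cilium genes 1 was higher and 6 lower. These were 1 and 3 without N replicate 3 or N replicate 2, and none and 1 without KP replicate 1. Slc26a9, a chloride channel, was at 9.56, 8.5 and 4.84 CPM in N and 20.3, 55.5 and 22.7 CPM in KP (log2 fold change 2.10 ± 0.47, adjusted p = 0.0151).

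Genes with a count of 0 in some library were not tested. By the naming rule, 3 of them were at 1 CPM or more in all KP and at 0.1 CPM or less in all N libraries. Clrn3 was at 0.0672, 0.0481 and 0 CPM in N and 16, 8.17 and 4.39 CPM in KP. Tnfrsf8, the TNF receptor family member CD30, was at 2.1 to 3.41 CPM in KP, and Oas1f at 1.29 to 4.83 CPM. The reverse was seen for 5 genes. Uts2b was at 5.53, 1.03 and 1.83 CPM in N and had 0 counts in all 3 KP libraries. Cldn1, a tight junction claudin, was at 3.71, 2.65 and 1.5 CPM in N and at most 0.0975 CPM in KP, and Chsy3, Adamts5 and Adgrg2 were at most 0.0487 CPM in KP.

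The same difference was measured in libraries of the other treatment and the other fraction. On polysomes after CR-31, 2855 genes differed between KP and N (25% of those tested), 1276 higher and 1579 lower (13.8%). Of these calls 2318 had been called in the same direction with vehicle, which is 47% of the vehicle calls and 81.2% of the CR-31 calls. No gene's difference between KP and N itself differed between the treatments at an adjusted p under 0.25 in edgeR, and 258 had an unadjusted p under 0.05. Without KP CR-31 polysome replicate 1, which lay nearer to the vehicle total library than to its own, again no gene passed in edgeR (106 had an unadjusted p under 0.05), and 1083 genes were called after CR-31, 481 higher (4.21%) and 602 lower (5.26%). With the N replicate 3 libraries left out too, the difference between treatments still gave 0 calls (70 at an unadjusted p under 0.05), and 2065 genes were called after CR-31. A count of 0 calls does not show that the treatments act alike. In total mRNA with vehicle 3258 genes differed (28.5%), 1494 higher and 1764 lower (15.4%). Of the polysome calls 2481 were called in the same direction in total mRNA, which is 50.3% of the polysome calls and 76.2% of the total calls. By their labels both fractions came from the same lysates, and some of these labels are uncertain. Agr2 had a log2 fold change of 7.99 after CR-31 and 8.25 in total mRNA, Itgb6 of -2.90 and -2.90, and Egfr of -2.54 and -2.55. Each of these 3 genes was called in all 3 comparisons.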

How the data were processed

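Polysome-associated and total mRNA was sequenced from N and KP organoids given vehicle or CR-31, with 3 libraries per group. Per the study's methods, the authors aligned reads with HISAT2, discarded reads with several matches, and counted reads per RefSeq gene. The submitters' processing notes name GRCh38 and hg38, which are human builds, while the entries carry mouse RefSeq symbols; the build behind the counts is thus uncertain, and coordinates of the deposited table were not used. The deposited counts are whole reads per gene, not normalized, and the deposited RPKM values are reads scaled to transcript length and library size; RPKM was used only to rank levels between genes. The table held 19895 entries. Of these, 1042 with several symbols (8.69 to 11.5% of counts over the 24 libraries) and 134 repeated ones were left out.

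Genes with a count above 0 in all 24 libraries were tested with edgeR 4.0.16 (R 4.3.3), quasi-likelihood F test, TMM scaling and Benjamini-Hochberg adjustment over all tested genes, on the 4 polysome groups together. Total mRNA was fitted in the same way. SE is the log2 fold change divided by the square root of F. Every adjusted p printed comes from this test. The threshold of 0.25 follows the study's methods. The test was checked on simulated data. The members, the gene lists and the tests were chosen with earlier results of these data known. Genes were named by these rules: the 12 largest changes in each direction at an adjusted p under 0.05 with no overlap and 5 CPM or more; up to 3 per list and direction among those called; the 10 highest by RPKM; 5 genes of the model and the p53 circuit; and untested genes at 1 CPM or more in all libraries of 1 organoid type and under 0.1 CPM in all of the other. Some genes these rules name are not reported here. N and KP libraries with the same number were checked for pairing, and the correlations of their deviations were 0.21, -0.13 and 0.06. Alternatives covered scaling, filters, DESeq2 1.42.0, the libraries fitted, the threshold, a replicate block and leaving out each library; leaving out both libraries that stood apart, all 4 N replicate 3 libraries, or KP CR-31 replicate 1, was chosen after seeing the data. Promoters came from RefSeq (GRCm38.p6).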

Additional observations from a re-analysis of the deposited data

Results flagged for a closer look

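The library labelled KP vehicle polysome replicate 3 held mRNA outside the tested set at a level above every other library of the series. The 15 leukocyte markers that had a count of 0 in some library summed to 48.2 CPM there, beside 0.264 and 0.145 CPM in the other KP vehicle polysome libraries, 0.915, 3.37 and 3.95 CPM in the N vehicle polysome libraries 0.391 CPM in the total mRNA library of the same label and at most 4.45 CPM in any other library. Lyz2, 1 of these 15, reached 22.6 CPM. Their source was not tested.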

How the results depend on the processing

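At an adjusted p under 0.05 the counts of genes higher, lower and in all were 917, 826 and 1743 on polysomes with vehicle, 280, 408 and 688 on polysomes with CR-31, and 413, 615 and 1028 in total mRNA. Leaving out each library in turn gave 3257 to 5525 calls on polysomes with vehicle (1693 to 2761 higher, 1564 to 2764 lower), 1083 to 3085 with CR-31 (481 to 1406 higher, 602 to 1679 lower) and 1610 to 3753 in total mRNA (734 to 1751 higher, 876 to 2002 lower). The lowest of these came without KP replicate 1, and without N replicate 3 total mRNA gave 1835. Without KP replicate 3, 818 genes were higher with CR-31. For the difference between polysome and total mRNA the calls were 0 to 2147, the latter without N replicate 3, 3980 without all 4 N replicate 3 libraries, and 6136 without these and the KP CR-31 replicate 1 libraries. For the difference between treatments they were 0 throughout. Over the same fits the log2 fold change crossed 0 for Mdm2 (-0.48 to 0.16), above 0 without N replicate 1, for Tmsb10 (-0.32 to 0.053), above 0 without N replicate 2, and for Egr1 (-3.50 to 0.44), above 0 without N replicate 3 and at 0.75 without both libraries that stood apart; the causes were not tested. With the replicate block 5717 genes were called (2873 higher, 2844 lower), but equal numbers did not deviate together in N and KP. RLE scaling, filterByExpr, no filter, DESeq2 and a fit of the vehicle libraries alone gave 4190 to 5353 calls on polysomes, within 1.5 times of 4930. Upper-quartile scaling moved the median log2 fold change from -0.03 to -0.13 and the share of calls that were higher from 48.5% to 39.8%. The number of libraries, 3 per group, and the wider spread of N limit the precision.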
